A study of Mus musculus with 34 samples.

Results

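Open chromatin was compared between day 7 and day 0 in mouse embryonic fibroblasts (MEF) in which Brg1 was knocked down and no doxycycline was given. The comparison covers 4 of the 34 samples of the series, 2 per day, and it rests on 2 of the 19 deposited lists of ATAC-seq summits. ATAC-seq marks open DNA by transposase cutting, and a summit is the base of highest signal in a called peak or in a part of one. The fibroblasts carried Etv2 under doxycycline control (iHA-Etv2 MEFs), they were not selected for Flk1, and neither group was induced. Both groups carried the Brg1 knockdown. The labels do not say how or when Brg1 was knocked down, and they give no uninduced day-7 fibroblasts without the knockdown, so days in culture and days of knockdown cannot be told apart. Each group has 1 list for its 2 samples. There is therefore no replicate error and no p-value, and intervals are exact Clopper-Pearson 95% intervals that cover counting error only. On chromosomes 1 to 19 and X, the day-7 list held 11188 summits and the day-0 list 36730. A summit counted as shared when the other list had one within 250 bp, and as day-7-only or day-0-only otherwise.

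Brg1, encoded by Smarca4, is an ATPase of the SWI/SNF (BAF) complexes, which slide and evict nucleosomes and keep many enhancers and promoters open. Its close relative Brm, encoded by Smarca2, drives the same kind of complex. In fibroblasts these complexes work with factors such as AP-1 and TEAD at enhancers, whereas promoters rich in CpG tend to be open in most cell types. An ATAC-seq summit says nothing of how much Brg1 was left, so the knockdown itself was not checked by these data.

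Gene starts differed in whether they had a summit in both lists or on day 0 alone, and 6 promoters show both outcomes for genes of the remodelling complex, serum-response genes and a histone gene. Each sequence below is the 250 bases before the RefSeq start (GRCm38.p6), written 5′ to 3′ on the strand of the gene. Capitals mark CCAAT, the letters read by the factor NFY, on either strand. The first 3 genes had a summit within 500 bp of the start in both lists. They are Smarca2 (chr19:26604910-26605159, plus strand), Dpf2, a BAF subunit with PHD fingers (chr19:5912872-5913121, minus strand), and the serum-induced Ier5 (chr1:155099637-155099886, minus strand).
Smarca2: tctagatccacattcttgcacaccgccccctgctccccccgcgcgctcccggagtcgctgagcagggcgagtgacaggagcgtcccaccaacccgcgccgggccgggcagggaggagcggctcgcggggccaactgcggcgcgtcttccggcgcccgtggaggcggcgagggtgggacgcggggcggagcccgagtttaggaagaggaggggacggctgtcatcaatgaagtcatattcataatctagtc
Dpf2: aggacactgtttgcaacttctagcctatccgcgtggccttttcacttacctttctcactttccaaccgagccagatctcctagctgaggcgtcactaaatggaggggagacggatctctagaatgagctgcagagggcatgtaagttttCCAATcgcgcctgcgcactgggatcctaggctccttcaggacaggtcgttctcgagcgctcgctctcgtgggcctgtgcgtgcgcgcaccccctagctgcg
Ier5: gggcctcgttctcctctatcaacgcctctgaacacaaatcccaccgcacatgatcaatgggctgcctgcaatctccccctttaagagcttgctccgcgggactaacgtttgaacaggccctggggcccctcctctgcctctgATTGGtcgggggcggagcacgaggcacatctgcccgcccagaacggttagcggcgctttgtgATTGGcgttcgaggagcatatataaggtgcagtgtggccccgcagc
The other 3 had a summit there on day 0 alone. They are Smarca4 (chr9:21615919-21616168, plus strand), the core histone gene H2bc9 (chr13:23543445-23543694, minus strand) and the AP-1 gene Jun (chr4:95052223-95052472, minus strand).
Smarca4: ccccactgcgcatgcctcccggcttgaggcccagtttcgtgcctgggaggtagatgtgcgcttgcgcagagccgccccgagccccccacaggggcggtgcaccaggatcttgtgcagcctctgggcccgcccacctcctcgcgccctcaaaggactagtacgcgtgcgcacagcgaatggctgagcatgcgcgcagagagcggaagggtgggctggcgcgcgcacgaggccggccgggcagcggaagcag
H2bc9: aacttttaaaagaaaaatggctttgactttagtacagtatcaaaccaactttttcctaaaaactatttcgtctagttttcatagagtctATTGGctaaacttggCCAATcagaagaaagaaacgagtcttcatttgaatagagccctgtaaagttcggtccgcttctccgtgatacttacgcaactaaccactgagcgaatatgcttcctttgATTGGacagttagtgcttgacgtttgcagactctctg
Jun: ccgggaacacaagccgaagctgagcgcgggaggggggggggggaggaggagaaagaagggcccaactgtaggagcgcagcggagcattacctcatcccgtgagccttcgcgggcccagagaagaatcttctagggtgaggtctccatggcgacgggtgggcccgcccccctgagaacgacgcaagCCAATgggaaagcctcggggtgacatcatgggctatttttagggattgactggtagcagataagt
These 250 bases held 28 CpG at Smarca2, 17 at Dpf2, 16 at Ier5, 25 at Smarca4, 8 at H2bc9 and 15 at Jun. Smarca4 and Smarca2 both lack CCAAT in this window. On day 0 the nearest summit lay 134 bases before the start of Smarca2 with a score of 26.7, and 60 bases before that of Smarca4 with a score of 21.9. On day 7 Smarca2 had a summit 121 bases before its start, with a score of 9.53, and the summit nearest to the Smarca4 start was 69831 bp away. Scores are the deposited −log10 q of the peak caller. They were used to rank summits within a list and, in an alternative setting, as a limit of at least 5 in both lists. The Smarca2 summit scored above 88.5% of the day-0 list and above 74.4% of the day-7 list. The day-7 summits of Dpf2 and Ier5 scored above 8.12% and 14.7% of the day-7 list. On day 0 the summits of Dpf2, Ier5 and Smarca4 scored above 82.4%, 82.5% and 83.3% of the list. Those of H2bc9 and Jun were weaker, above 60.1% and 66.6%. Neither was among the 11188 highest-scoring day-0 summits, of which the nearest lay 1137 bp from the H2bc9 start and 53741 bp from the Jun start.

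Of the day-7 summits, 6681 (59.7%, 58.8 to 60.6%) were shared with day 0 and 4507 (40.3%) were day-7-only. Of the day-0 summits, 6379 (17.4%, 17.0 to 17.8%) were shared and 30351 (82.6%) were day-0-only. The day-7 list was thus the shorter one, and most of it lay where day 0 also had a summit. Just inside the matching limit, 593 day-7 summits had their day-0 neighbour at 201 to 250 bp, and just outside it 412 had one at 251 to 300 bp. With matching within 100 bp, 37.5% of day-7 and 11.3% of day-0 summits were shared and 6997 were day-7-only, and with scores of at least 5 there were 2354 day-7-only summits. In all, 2301 (20.6%) lay more than 10000 bp from any day-0 summit. When the 11188 highest-scoring day-0 summits were used, so that both lists had equal numbers, 4113 day-7 summits (36.8%) were shared and 7075 (63.2%) were day-7-only, while 3854 of the day-0 summits (34.4%) were shared and 7334 (65.6%) were day-0-only. In bulk chromatin, fewer cells with an open site and less opening per cell cannot be told apart, and read depth was not analysed here.

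Of the marker genes with a start, most of the labelled cell type had a day-0 summit there, and the few of other types did not. Of 7 fibroblast markers with a start, 6 had a day-0 summit and 3 a day-7 summit there. Day-0 summits lay at the starts of Col1a2, Col3a1, Twist1, Twist2, Prrx1 and Vim, and day-7 summits at Col1a2, Twist2 and Vim. Endothelial, macrophage, epithelial, skeletal muscle, neural and pluripotent markers had 0 summits at their starts in both lists, but each type had only 3 or 4 markers with a start. The longer gene lists used below did not separate the types as clearly. A day-0 start summit was found at 7 of 23 endothelial, 2 of 12 neural and 2 of 16 haematopoietic genes with a start. For fibroblast lists it was 6 of 15 transcription factors and 15 of 20 surface and matrix genes. Within 50 kb the markers did not separate the types. A day-0 summit lay there for 12 of 12 fibroblast, 6 of 6 macrophage, 5 of 6 endothelial and 5 of 6 epithelial markers, and a day-7 summit for 3 of 12, 4 of 6, 3 of 6 and 5 of 6.

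Fewer of the day-7-only summits lay at genes and more lay far from them than in the other classes. Within 1 kb of a gene start were 345 of them (7.66%, 6.90 to 8.47%), against 38.7% (37.6 to 39.9%) of the shared and 28.5% (28.0 to 29%) of the day-0-only summits, where such windows cover 1.40% of the genome. Over 50 kb from any protein-coding gene were 39.7% (38.3 to 41.2%) of the day-7-only summits, 19.9% of the shared and 11.8% of the day-0-only ones. Inside gene bodies, away from the ends, were 26.0%, 21.7% and 36.1% of the 3 classes. The median distance to a start was 82.1 kb for day-7-only, 20.3 kb for shared and 22.3 kb for day-0-only summits. With equal numbers, 7.58% of day-7-only summits were near a start, against 58.3% of shared and 51.5% of day-0-only ones. Within 1 kb of either end of a gene the day-7-only share was 8.85%, and it was 19.7% with matching within 100 bp, 2.14% within 500 bp and 3.65% with scores of at least 5. With 250 bp, most gene-end summits that only day 7 had thus lay 251 to 500 bp from a day-0 summit.

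**Figure D1:**
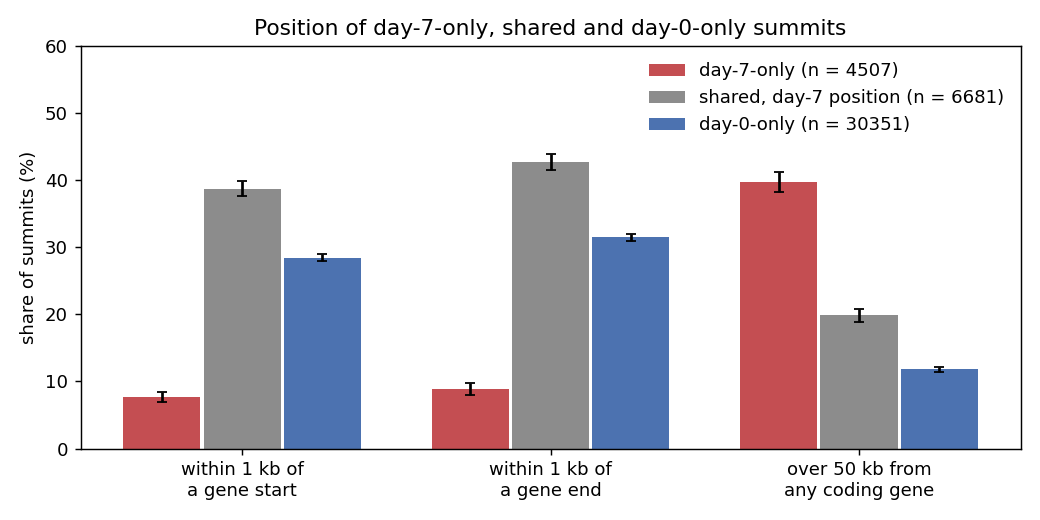
Share of summits (y axis, percent) near gene starts, near either gene end and over 50 kb from any protein-coding gene, for day-7-only (red), shared (grey) and day-0-only (blue) summits, with exact 95% intervals as error bars. The day-7-only bars are the lowest at genes, 7.66% at starts, and the highest far from genes, 39.7%.

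The 2 lists ranked gene starts in opposite order. In the day-0 list, the share of summits within 1 kb of a start grew with the score, from 12.6% in the lowest-scoring decile to 62.5% (60.9 to 64.0%) in the highest. In the day-7 list it went down, from 39.0% (36.1 to 41.9%) in the lowest decile to 6.52% in the ninth decile and 0.358% (0.0976 to 0.914%) in the highest, which is 4 of 1118 summits. Those 4 were nearest to Gm32584, Kbtbd3, Duxf3 and Asmt, and they are named because they were so few. The top of the day-7 list was distal and largely common to both days, since 73.8% of its highest decile was shared and 45.9% lay over 50 kb from any protein-coding gene. The 10 highest-scoring shared and 10 highest-scoring day-7-only summits all lay in a few places. These were chromosome 9 from 3001008 to 3034712, chromosome 14 from 19415991 to 19418162 and chromosome 2 at 98666936. The peak on chromosome 9 held 93 day-7 summits, and the sequences of these places were not read. Over the whole lists, 50 crowded bins of 100 kb, with at least 20 summits in the 2 lists together, held 10.4% of the day-7 and 2.82% of the day-0 summits. Without those bins the share at starts in the highest day-7 decile was 1.30% (0.693 to 2.21%), and with only the highest summit of each peak it was 2.45%. The same order stood in the day-7 list of knockdown fibroblasts given doxycycline, from 37.1% down to 0.367%. In the 9 other fibroblast lists besides day 0, the share in the highest decile was at least 20.7%, the value in induced day-7 fibroblasts without the knockdown.

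**Figure D2:**
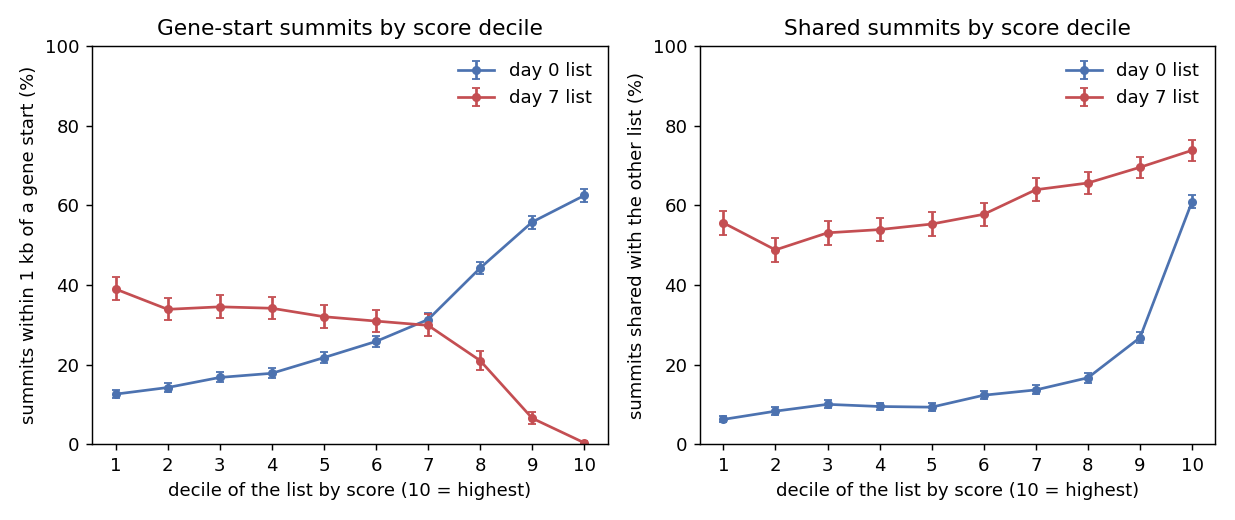
Left, share of summits within 1 kb of a gene start, and right, share of summits shared with the other list (y axes, percent), by decile of each list ordered by score (x axis, 10 is the highest), with exact 95% intervals. Start summits grow from 12.6% to 62.5% across the day-0 list (blue) and shrink from 39.0% to 0.358% across the day-7 list (red).

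A day-0 summit was found again on day 7 more often the higher its score. The shared portion was 6.24% in the lowest day-0 decile, 26.8% in the ninth and 60.9% (59.3 to 62.5%) in the highest. At gene starts it ran from 1.52% to 62.9%, and away from them from 6.91% to 57.7%. Weak summits at starts were thus seen again less often than weak distal ones, while among the strongest the order was the opposite. In the day-7 list the shared portion varied less, between 48.8% in the second decile and 73.8% in the highest.

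At the level of genes, the day-7 starts were nearly a subset of the day-0 starts. Of 17274 protein-coding genes with a start in the reference table (79.9% of 21631), 8874 (51.4%) had a day-0 summit within 500 bp of a start and 2678 (15.5%, 15 to 16.1%) had a day-7 summit there. Both lists had one at 2646 genes, which is 98.8% of the day-7 genes and 29.8% (28.9 to 30.8%) of the day-0 genes. Of the 32 genes with a day-7 start summit alone, 27 had a day-0 summit within 1 kb. The other 5 were 4930474N05Rik, Gm3629, Gm51571, LOC115486880 and Zfp981, named here because of their small number. With equal numbers of summits, 6003 genes had a day-0 start summit and 2493 of these (41.5%) had one on day 7 too. With scores of at least 5 in both lists the share was 11.3%. The lists of the days between were long: 8964 genes had a start summit on uninduced day 1 and 9094 on day 2, and these included 96.9% and 97.0% of the day-0 genes. In knockdown fibroblasts given doxycycline, 2964 genes had one on day 7, 1935 of them also in the uninduced day-7 list, and in induced day-7 fibroblasts without the knockdown 5966 genes did.

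Starts with a summit in both lists were somewhat richer in CpG than starts with one on day 0 alone. Over 21045 promoter windows of 300 bases (250 before and 50 from the start on), the median was 24 CpG for the 2992 in both, 21 for the 7221 on day 0 alone and 4 for the 10767 with neither. Among windows with a day-0 summit, the portion that also had a day-7 summit was 10.6% (7.16 to 15%) at 0 to 4 CpG, 35.9% (33.1 to 38.8%) at 30 to 34 CpG and 32.4% (30.0 to 34.9%) at 35 to 67 CpG. CCAAT, on either strand, stood in 45.9% (44.1 to 47.7%) of the windows in both lists, 37.3% (36.2 to 38.4%) of those on day 0 alone and 38.5% of all windows. With equal numbers the first 2 values were 47.2% (45.3 to 49.0%) and 43.2% (41.7 to 44.8%). The GC box GGGCGG stood in 74.9%, 67.3% and 46.7% of the same classes, and the ETS letters CCGGAAG in 21.8%, 20% and 11.7%. The AP-1 letters TGACTCA were rare in all of them, at 2.81%, 3.34% and 4.69%. For the first 2 classes with equal numbers, the GC box stood in 74.9% and 68.85%. The order of the ETS letters then turned, at 22.3% (20.8 to 23.9%) in both lists and 23.7% (22.4 to 25.0%) on day 0 alone. Of the 6 promoters printed above, H2bc9 shows that CCAAT letters also occur where day 7 had no summit. These motif counts are descriptions, and day-0 score and CpG content moved with them.

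Around most genes the day-0-only summits outnumbered the day-7-only ones. Counting summits within 50 kb of the gene, 16688 of 21631 protein-coding genes (77.1%) had more day-0-only summits and 809 (3.74%) had more day-7-only summits, with a median difference of -2. With equal numbers these shares were 45.9% and 13.6%, with a median of 0. With scores of at least 5, 469 genes had more day-7-only summits. Windows of neighbouring genes overlap and share summits. Set against the length of each list, all genes had 2311 window counts per 1000 summits on day 0 and 1770 on day 7, a ratio of 0.766. Of 21 gene lists, 17 had a lower ratio than that, 18 did with equal numbers, and 16 did both ways. With equal numbers some of these lay next to the 0.630 of all genes: cell cycle (0.627), epithelial (0.625), housekeeping (0.619) and TEAD-YAP genes (0.618).

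**Figure D3:**
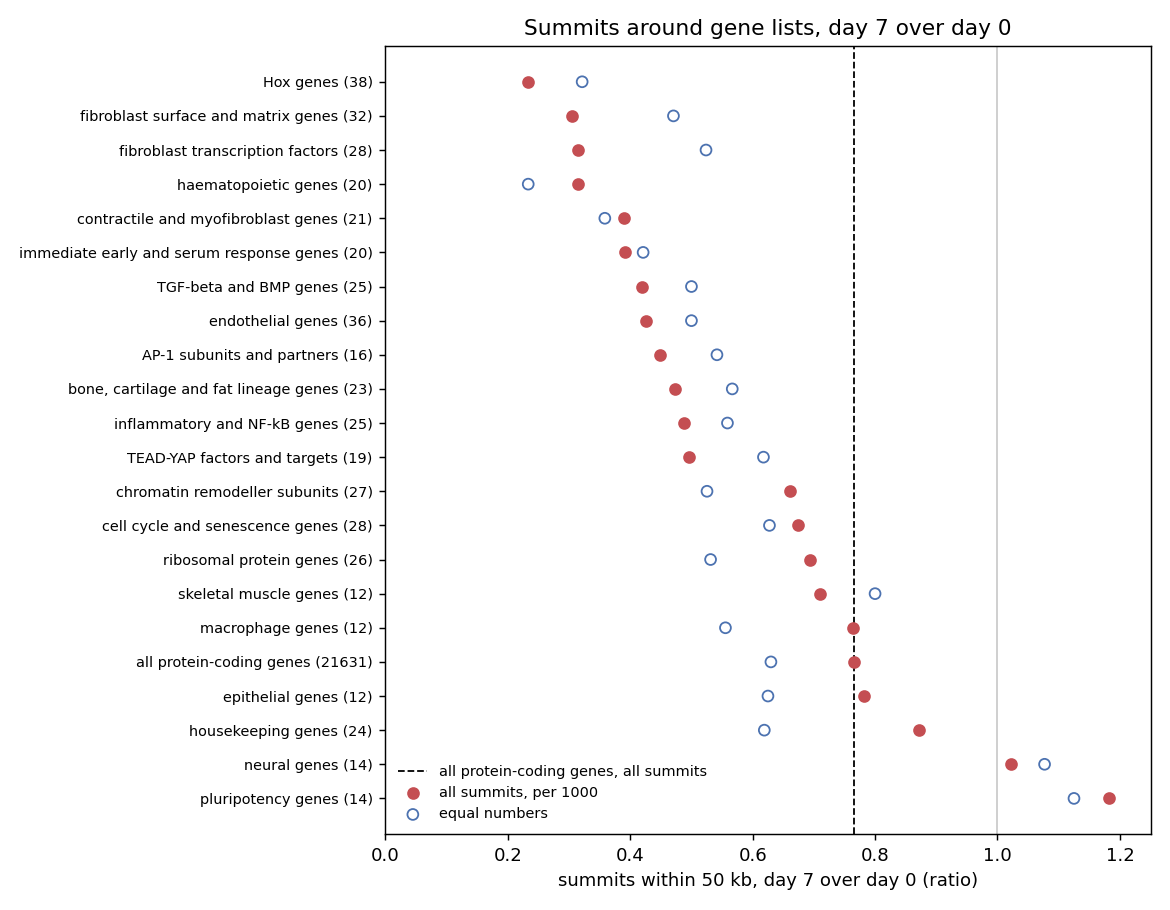
Summits within 50 kb of the genes of each list, day 7 over day 0 (x axis, ratio), per 1000 summits of each list (red) and with equal numbers of summits (open blue circles); list sizes are in parentheses and the dashed line is the ratio of all protein-coding genes with all summits, 0.766. Per 1000 summits, Hox and fibroblast lists lie at the low end, with 0.233 for Hox genes, and neural and pluripotency lists lie above 1.

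Genes of fibroblast identity had low ratios per 1000 summits and ratios closer to that of all genes with equal numbers. For 32 fibroblast surface and matrix genes the summits numbered 172 on day 0, 173 on day 1, 179 on day 2 and 16 on day 7 (ratio 0.305, and 0.471 with equal numbers). Of these genes 30 had more day-0-only and 1 had more day-7-only summits, with a median difference of -5 (-0.5 with equal numbers). The exception was Postn, the matrix protein periostin, with 1 summit on day 0 and 2 on day 7. Fstl1, a secreted glycoprotein of mesenchyme, had 9, 10, 10 and 0 summits on days 0, 1, 2 and 7, and Ddr2, a collagen receptor, had 9, 6, 8 and 1. Day-0 summits with equal numbers were 0 at Fstl1 and 2 at Ddr2. The 28 fibroblast transcription factors had 115, 113, 127 and 11 summits on these days (ratio 0.314, and 0.524 with equal numbers, where all genes had 0.630). Among them 23 (82.1%) had more day-0-only and 2 had more day-7-only summits, near the 77.1% of all genes, and with equal numbers the median was 0. Zeb2, a zinc-finger repressor of epithelial genes, had 9, 7, 6 and 0, and Ebf1, a helix-loop-helix factor of mesenchyme and B cells, had 10, 7, 8 and 0. Zeb2 and Ebf1 had day-0 summits 138 and 72 bp from a start. Their windows held 2 and 0 day-0 summits with equal numbers. The 2 with more day-7-only summits were Snai2, with 1 and 2 summits on days 0 and 7, and the homeobox gene Meox2, with 0 and 2. Postn and Snai2 had a difference of -1 with a gene window of 10 kb, and so had Postn with scores of at least 5. Across the 38 Hox genes, which set position along the body axis, there were 127, 177, 179 and 9 summits. Of these, 28 genes (73.7%) had more day-0-only summits, a share at the 77.1% of all genes, and 0 had more day-7-only ones. With equal numbers 10 of 38 had more day-0-only summits, where 45.9% of all genes did, and 28 had a difference of 0. The ratio was then 0.321, beside 0.630 for all genes. Hoxa2 to Hoxa7 share most of their window, and Hoxa5 had 11, 15, 12 and 1, the last one 358 bp from its start.

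Contractile, serum response, AP-1 and TEAD-YAP genes had ratios below that of all genes, but with equal numbers only the first 2 lists had a negative median. All 21 contractile and myofibroblast genes had more day-0-only summits, beside 77.1% of all genes (median -5, and -2 with equal numbers). They had 160 summits on day 0 and 19 on day 7 (ratio 0.390). The actin crosslinker Flna had 11, 9, 7 and 0 summits on days 0, 1, 2 and 7. Mrtfa, the actin-regulated partner of the serum response factor, had 14, 13, 11 and 1. A summit at the start was in both lists for 4 of the 17 contractile genes with a day-0 start summit, among them Myh9, the heavy chain of non-muscle myosin, and Zyx, a focal adhesion protein, with day-7 summits at 251 and 111 bp. That is 23.5% (6.81 to 49.9%), an interval that includes the 29.8% of all genes. For 20 immediate early and serum response genes all differences were negative (median -6, and -1.5 with equal numbers), with 134 and 16 summits. Nr4a1, an orphan nuclear receptor induced by serum, had 13, 9, 11 and 1, and Ier2 had 10, 10, 11 and 0. Day-0 summits with equal numbers were 4 at Nr4a1 and 0 at Ier2. Of the 15 day-0 start summits of this list, 3 (20%, 4.33 to 48.1%) were found on day 7, 1 of them at Ier5. The 16 AP-1 genes had 95 and 13 summits, with 15 having more day-0-only and 1 more day-7-only summits (median -4, and 0 with equal numbers). Fosb had 13, 16, 13 and 0, Jun 8, 6, 10 and 0, and Fosl1, the AP-1 subunit Fra-1, 15, 13, 14 and 1. Their day-0 summits with equal numbers were 2, 0 and 2. Batf3, which has its main role in dendritic cells, was the exception with 3 and 4. The 19 genes of the TEAD-YAP pathway, which reads cell stretch, had 139 and 21 summits, and all 19 had more day-0-only ones (median -7). With equal numbers the median was 0, and 9 of the 19 had more day-0-only summits where 45.9% of all genes did. The ratio was then 0.618, next to the 0.630 of all genes. Amotl1, which binds YAP, had 9, 10, 9 and 0, and the YAP target Nuak2 had 11, 8, 14 and 0. Day-0 summits with equal numbers were 2 at Amotl1 and 0 at Nuak2.

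Among TGF-beta and BMP genes, 22 of 25 (88%, beside 77.1% of all genes) had more day-0-only and 0 more day-7-only summits. The median was -4 (0 with equal numbers), and the summits numbered 141 and 18. Their ratio was 0.419, and 0.5 with equal numbers, beside 0.766 and 0.630 for all genes. With equal numbers 10 of 25 had more day-0-only summits, where 45.9% of all genes did. Ltbp1, which binds latent TGF-beta in the matrix, had 17, 14, 16 and 2 summits on days 0, 1, 2 and 7, and its start had one in both lists. The type III receptor Tgfbr3 had 10, 14, 7 and 0, and the BMP receptor Bmpr1a 10, 7, 9 and 0. For 25 inflammatory and NF-kB genes, 24 (96%) had more day-0-only summits, and 15 did with equal numbers (median -4, and -1 with equal numbers). They had 128 and 19 summits (ratio 0.487, and 0.559 with equal numbers). Nfkbia, the inhibitor of NF-kB, had 10, 9, 12 and 0, while the start of Nfkb2 had a summit in both lists. Day-0 summits at Nfkbia numbered 0 with equal numbers. In the 23 bone, cartilage and fat genes 21 (91.3%) had more day-0-only summits, and 9 did with equal numbers (median -3, and 0 with equal numbers). They had 118 and 17 summits (ratio 0.473, and 0.567 with equal numbers). Among them were Pparg, the master factor of fat cells, with 9, 8, 7 and 0, and Zfp423, a factor of fat precursors, with 13, 14, 19 and 0. Both had 0 day-0 summits with equal numbers, so their difference was then 0. Of the 6 day-0 start summits of this list 0 were found on day 7, with an interval up to 45.9% that includes the 29.8% of all genes.

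Endothelial and blood genes, among them known targets of Etv2, also had fewer summits on day 7 without doxycycline. Of 36 endothelial genes 35 (97.2%, beside 77.1% of all genes) had more day-0-only and 0 more day-7-only summits, with a median of -3. They had 154 and 20 summits, a ratio of 0.426 beside 0.766 for all genes. With equal numbers the median was 0 and the ratio 0.5, beside 0.630. At that setting 17 of 36 had more day-0-only summits, where 45.9% of all genes did. Eng, a TGF-beta co-receptor of vessels, had 11, 11, 11 and 0, and Plvap, a protein of fenestrated endothelium, had 13, 11, 13 and 2. Kdr, which encodes Flk1, had 1 summit on day 0 and 0 on day 7, and Etv2 itself had 3 and 1. The 20 haematopoietic genes had 73 and 7 summits (ratio 0.315, and 0.233 with equal numbers), with 17 (85%) having more day-0-only and 0 more day-7-only ones. Given doxycycline, knockdown fibroblasts had 25 endothelial and 11 haematopoietic summits on day 7, which is 1.83 and 0.806 per 1000. The uninduced day-7 list had 1.79 and 0.626 per 1000. Neural and pluripotency genes had the highest ratios of the 21 lists. The 14 neural genes had 45 and 14 summits (ratio 1.02, and 1.08 with equal numbers). Tubb3 alone had 7 of these day-7 summits, and 9 of the genes had none. More day-0-only summits lay at 10 neural genes (71.4%) and more day-7-only at 0, with a median difference of -3 (0 with equal numbers). The 14 pluripotency genes had 25 and 9 summits (ratio 1.18), with more day-0-only summits at 5, more day-7-only at 1 and equal numbers at 8. The 1 was Esrrb, an orphan nuclear receptor, with 0 and 1.

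Remodeller and ribosomal genes also had ratios below that of all genes. Per 1000 summits cell cycle genes were below it and housekeeping genes above it, and with equal numbers both were next to the 0.630 of all genes. The 27 chromatin remodeller genes had 154 summits on day 0 and 31 on day 7 (ratio 0.661, and 0.525 with equal numbers). Of these 27, 26 (96.3%, beside 77.1% of all genes) had more day-0-only and 0 had more day-7-only summits. Of their 20 day-0 start summits 7 (35%) were found on day 7, where all genes had 29.8%. Smarca4 had 5, 6, 7 and 0 summits on days 0, 1, 2 and 7, and Smarca2 had 4, 5, 4 and 1. Pbrm1, the bromodomain subunit of PBAF, had 13, 8, 11 and 0, Arid1b, a DNA-binding BAF subunit, 13, 19, 21 and 3, and Chd4, the ATPase of NuRD, 10, 11, 11 and 1. In the 28 cell cycle genes 27 (96.4%) had more day-0-only and 0 more day-7-only summits, with 156 and 32 summits (ratio 0.673, and 0.627 with equal numbers). Cdk4 had 10, 7, 6 and 0, and Mdm2, the ligase that degrades p53, had 11, 11, 9 and 0. Ribosomal protein genes had 161 and 34 summits (ratio 0.693, and 0.531 with equal numbers), and 2 of their 16 day-0 start summits (12.5%, 1.55 to 38.4%) were found on day 7, and 2 of 13 with equal numbers, beside 29.8% and 41.5% of all genes. Rpl10 had 12, 11, 9 and 0 summits, and Rps18 had 16, 17, 16 and 2. Rpl7, at 8 and 10, was the ribosomal gene with more day-7-only summits, and its difference was -1 with matching within 500 bp, with the highest summit of each peak and with a 10 kb window. The 24 housekeeping genes had 147 and 39 summits (ratio 0.871, and 0.619 with equal numbers), with 23 genes having more day-0-only ones and 5 of 17 start summits found again. Gapdh had 8 summits on day 0 and 2 on day 7, with no day-7 summit within 26024 bp of its start, and Actb had 6 and 0.

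Replication-dependent histone genes had fewer summits on day 7, most so in 1 of 3 clusters. The cluster of 31 histone genes on chromosome 13 from 23531044 to 23934913 had 38 summits on day 0, 38 on day 1, 37 on day 2 and 1 on day 7. A summit lay within 1 kb of an end of 27 of these genes on day 0 and of 2 on day 7. With doxycycline, day 7 also had 1 summit in this cluster, and induced day-7 fibroblasts without the knockdown had 14. A further 23 genes on chromosome 13 from 21715711 to 22043658 had 37 and 6 summits on days 0 and 7, and 23 and 10 of these genes had one at an end. The 10 genes on chromosome 3 had 14 and 4 summits, which per 1000 summits of each list is 0.381 and 0.358, and 10 and 4 of them had one at an end. The window of H3c8, the gene with the largest excess of day-0-only summits among all genes, had 26, 23, 20 and 0. H2bc9, H3c7, H4c6, H2ac10, H1f3 and H3c6 are its neighbours in the same cluster. Of the 38 day-0 summits, 8 stood among the 11188 highest-scoring ones of day 0. Histone genes have near-identical copies among which reads can be split, so single copies are uncertain.

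Some long genes had many day-0 summits and few on day 7. Foxp1, a forkhead factor, had 26, 29, 26 and 1 summits on days 0, 1, 2 and 7, the last one shared with day 0. On day 7 with doxycycline Foxp1 had 0 summits in the knockdown cells and 1 in cells without the knockdown. Dlgap1, a scaffold of synapses, had 26, 22, 34 and 4. Each of the 2 genes had 5 day-0 summits with equal numbers. The difference between day-7-only and day-0-only summits was then -4 at Foxp1 and -1 at Dlgap1, beside -25 and -23 with all summits.

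Snhg14 and the 5S ribosomal RNA array were among the crowded regions that had more summits on day 7. Both were chosen after their values were seen, and other crowded regions went either way. The 100 kb bin from 3000000 on chromosome 9 had 74 summits on day 0 and 104 on day 7. The bin from 3100000 on chromosome 11 had 44 and 55, and the bin from 23500000 on chromosome 13 had 25 and 0. The predicted gene Gm7592 on chromosome 1 had 54, 47, 68 and 28 summits on days 0, 1, 2 and 7, with 35 day-0-only and 10 day-7-only, while 0 of its 54 were among the 11188 highest-scoring day-0 summits, so that the difference was 28 in favour of day 7 with equal numbers. Snhg14 (chromosome 7, 59272737 to 60450177), the long host RNA of the Prader-Willi region that runs antisense to Ube3a, had 17 summits on day 0, 15 on day 1, 25 on day 2 and 92 on day 7. Of these 92, 84 were day-7-only and 91 lay in its array of 206 small nucleolar RNA genes, which repeat at a median spacing of 1872 bp. Per 1000 summits of the list this was 0.463 on day 0 and 8.22 on day 7. Summits lay within 1 kb of 12 of these 206 copies on day 0 and of 57 on day 7. The array had 148 summits in the day-7 list with doxycycline, 48 in day-0 fibroblasts without the knockdown and 124 in their induced day-7 list. The 5S ribosomal RNA array (chromosome 8, 123538784 to 123622046), which supplies the smallest RNA of the large ribosomal subunit, had 121, 117, 116 and 171 summits on days 0, 1, 2 and 7. Next to it, Gas8 had the largest excess of day-7-only summits of any protein-coding gene, with 73 summits on day 0 and 95 on day 7. Its 50 kb window reaches into the 5S array and shares summits with it, and the excess was gone without crowded bins. The copies of such arrays are alike and reads cannot always be assigned to 1 of them, so the place of single summits is uncertain.

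**Figure D4:**
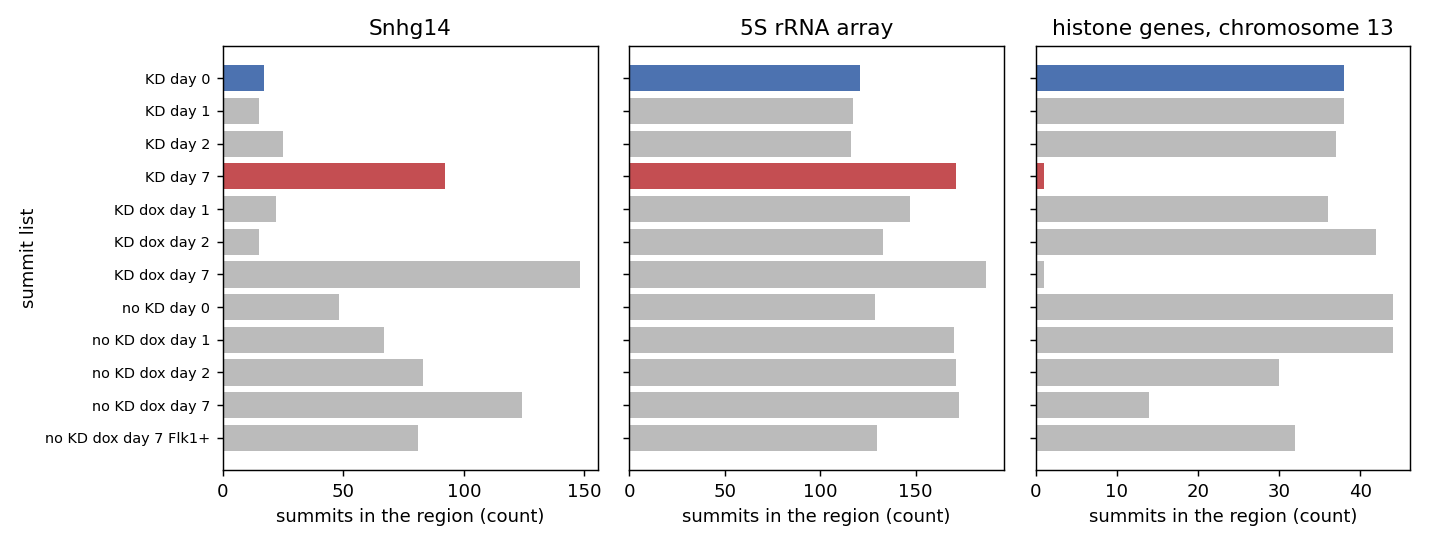
Number of summits (x axis, count) in Snhg14, the 5S rRNA array and the histone cluster of chromosome 13 in each of the 12 fibroblast lists (y axis), with the uninduced knockdown lists of day 0 in blue and day 7 in red; KD is the Brg1 knockdown, dox is doxycycline, and each bar is 1 list without replicates. Snhg14 has 17 and 92 summits, the 5S array 121 and 171, and the histone cluster 38 and 1.

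A few other genes had more summits on day 7. Prss1, a trypsinogen gene within the T-cell receptor beta locus, had 0, 1, 6 and 7 summits on days 0, 1, 2 and 7, and 13 on day 7 with doxycycline. Its neighbouring copies Gm10334 and Gm5771 share these summits. Myo3a, a motor protein of hair cells, had 4, 4, 5 and 12, of which 7 were day-7-only, and 12 on day 7 with doxycycline. Cyp2c29, a liver oxidase in a gene family cluster, had 17, 16, 17 and 29. On the X chromosome Mid1 had 34 and 42, and Zmat1 had 19 and 27. The windows of Cyp2c29, Mid1 and Zmat1 overlap crowded bins. These bins had 17 and 29 summits at Cyp2c29, 23 and 29 at Mid1, and 20 and 27 at Zmat1. Several of these gene counts come from many summits within a single peak. With only the highest summit of each peak the excess of day-7-only summits was gone at Gas8, Cyp2c29, Mid1 and Zmat1. Such counts were also not particular to day 7. The longer list of day-0 fibroblasts without the knockdown had 4 summits at Prss1, 11 at Myo3a, 23 at Cyp2c29, 56 at Mid1 and 24 at Zmat1. The X chromosome as a whole held 5.23% (4.82 to 5.66%) of the day-7 summits, 2.86% (2.69 to 3.03%) of the day-0 summits and 7.57% (6.81 to 8.38%) of the day-7-only ones, beside 6.49% of the sequence span. The day-7 doxycycline list had 5.75% there, and the other fibroblast lists had 2.71 to 4.08%.

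Both classes were then looked up in the other 10 fibroblast lists. Day-0-only summits were mostly present through day 2, with 59.6% found on both uninduced day 1 and day 2 and 19% on neither. Day-7-only summits were mostly absent until then, with 13% found on both days and 65.2% on neither. The list that held most of them was that of day 7 with doxycycline, at 53.1% (51.6 to 54.5%), although it was the shortest of the 10 with 13644 summits. It held 7.43% of the day-0-only summits. Induced day-7 fibroblasts without the knockdown held 47.2% of the day-7-only and 20.8% of the day-0-only summits. In day-0 fibroblasts without the knockdown the values were 30.4% and 76.2%. Shared summits were found in 73.9 to 86.7% of cases in each of the 10 lists. Of the day-7-only summits, 612 (13.6%) were in none of the 10 lists and 78 in all of them, while 2539 of the shared summits (38.0%) were in all. Lists with and without the knockdown may have been processed differently, so values from the latter are set beside the others only as a description.

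**Figure D5:**
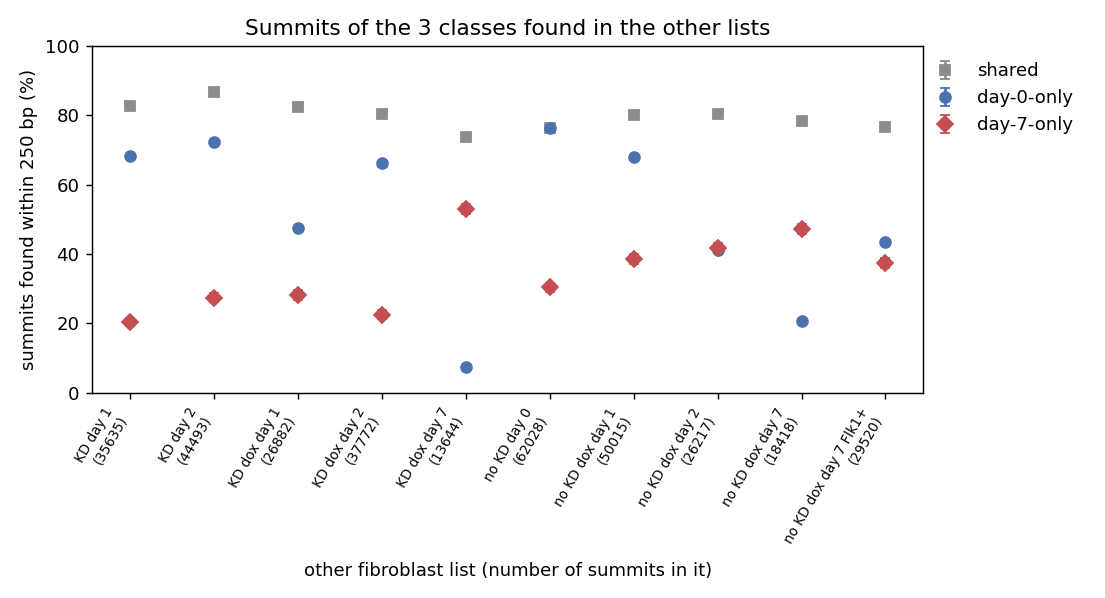
Share of shared (grey squares), day-0-only (blue circles) and day-7-only (red diamonds) summits with a summit within 250 bp (y axis, percent) in each of the other 10 fibroblast lists (x axis, with the number of summits in each), with exact 95% intervals mostly smaller than the symbols. The day-7 list of knockdown cells given doxycycline holds 53.1% of the day-7-only and 7.43% of the day-0-only summits.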

How the data were processed

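ATAC-seq libraries of 4 samples, 2 per day, were compared through 2 summit lists, 1 for each group. Reads were aligned with Bowtie2 2.2.4 to mm10 and peaks called with MACS2, and HOMER was used, per the submitters' processing notes. How the 2 samples of a group were combined, and how duplicate, mitochondrial and multi-mapping reads were treated, is not given in the sources used here. Each summit came with a deposited score, −log10 of its q-value, and every score exceeded 1.30, a q-value of 0.05. Such scores grow with depth, and read depth was not analysed here, so scores served mainly for ranking within a list. The alternative with scores of at least 5 put the same limit on both lists, so depth can affect it. Day-7 scores were lower, with 51.6% below 5 against 33.7% on day 0.

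Lists were read with pandas 2.3.3 and numpy 2.4.6, intervals computed with scipy 1.17.1 and figures drawn with matplotlib 3.10.9, all in Python 3.11.15. Matching and counting were tested on simulated summits. Genes and promoter sequences came from RefSeq tables of GRCm38.p6, and 79.9% of protein-coding genes had a start there. All 469 genes of the 21 lists were found. Members, lists and tests were chosen with earlier results of these data known. Genes named per list were examples from those with the highest and lowest differences between day-7-only and day-0-only summits, with the 10 highest and 10 lowest of all genes, the genes nearest the 10 highest-scoring summits of each class, and Smarca4, Smarca2, Etv2, Kdr, Gapdh and Actb. Regions, and genes given for their small number, were chosen after their values were seen.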

Additional observations from a re-analysis of the deposited data

How the results depend on the processing

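No paired analysis was possible because each group has 1 list for both of its samples, which also prevented leaving out a replicate. Day-7 summits shared with day 0 were 37.5% with matching within 100 bp, 70.8% within 500 bp, 36.8% with equal numbers, 56.6% with a score of at least 5 and 58.5% with the highest summit of each peak. Day-0 summits shared with day 7 were 11.3%, 20.5%, 34.4%, 12.0% and 16% in that order, and 16.1% without crowded bins, an alternative chosen after seeing the data. Day-7-only summits numbered 6997 within 100 bp, 7075 with equal numbers and 2354 with a score of at least 5, and day-0-only summits 7334 with equal numbers. The gene-end share of day-7-only summits was 19.7% (100 bp), 2.14% (500 bp), 3.65% (score), 11.3% (highest summit) and 6.50% (gene end within 500 bp). For day-0-only summits it was 55.8% (equal numbers), 43.4% (score), 29.3% (highest summit) and 25.5% (gene end within 500 bp). For shared summits it was 44.7% (100 bp), 40.2% (500 bp), 63.7% (equal numbers), 31.4% (score), 48.9% (highest summit), 47.4% (without crowded bins) and 39.0% (gene end within 500 bp). At each of these settings the day-7-only share was the lowest of the 3 classes. Genes with more day-7-only summits numbered 2947 with equal numbers and 469 with the score limit, and genes with more day-0-only summits 9939 with equal numbers. Lists with a negative median were 20 of 21 by default and 10 with equal numbers. The start share of the highest day-7 decile was 2.45% with the highest summit of each peak and 1.30% without crowded bins. That of day 0 was 56.8% (equal numbers), 66.2% (highest summit) and 65.1% (without crowded bins). Day-0 start genes found on day 7 were 41.5% with equal numbers and 11.3% with the score limit. Day-7 start genes found on day 0 were 93.1% with equal numbers and 97.4% with the highest summit. Day-7-only summits in the day-7 doxycycline list were 34.1% (100 bp), 65.9% (500 bp), 59.5% (equal numbers) and 71.1% (score). Of 85 named genes, 70 had more day-0-only summits by default, and 51 of these still did with equal numbers. The 15 with more day-7-only summits all kept that order at that setting. The difference was then 0 at 17 of the 85. Among named genes with a difference of at least 3 between day-7-only and day-0-only summits, the difference changed sign at Cdk6 (2 with equal numbers), Gm7592 (28 with equal numbers), Gas8 (-1 with the highest summit of each peak and -1 without crowded bins), Mid1 (-2), Cyp2c29 (-1) and Zmat1 (-1) with the highest summit of each peak, and Gm5771 (-1) and Zmat1 (-1) with a gene window of 10 kb. Of the genes with a smaller difference, Snai2 (-1 with 10 kb), Postn (-1 with scores of at least 5 and with 10 kb) and Rpl7 (-1 within 500 bp, with the highest summit and with 10 kb) changed sign. The causes were not tested.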
